A study of Mustela putorius furo with 8 samples.

Results

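Cluster 7 of the cystic fibrosis (CF) ferret pancreatic ductal epithelial cultures was taken from the deposited cell annotation, in which each retained cell carries a cluster, and the cells of that cluster were given the class centroacinar. It held 493 of the 32945 retained cells of the series. Of these, 473 (95.9%) came from the CF library of day 9, 19 from CF day 7 and 1 from CF day 5, and none from CF day 2 or from any wild-type (WT) library. In the CF day 9 library cluster 7 made up 473 of 2489 cells (19%, 95% exact binomial interval 17.5 to 20.6) and 24.2% of the 1957 cells of the centroacinar class. Cluster 7 at CF day 9 is described here against the other 2016 cells of the same library.

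The series holds 8 single-cell RNA libraries, 1 for each genotype and day, from ductal epithelial cells of newborn ferrets (1 to 3 days old) seeded at passage 10 and grown at an air-liquid interface for 2, 5, 7 or 9 days. CF animals carried a CFTR knockout on both alleles (KO/KO), and WT animals were the comparison. Per the study's methods, cells from 3 donors per genotype were pooled in each library, so no replicate separates one donor from another. Nearly all of cluster 7 lies in 1 library, so no test of it over libraries was made. Intervals are 95% exact intervals on unique molecular identifiers (UMIs) or on cells and cover counting error only. Levels are CPM, the counts of a gene scaled to a common total of UMIs summed over the cells named, and log2 differences were taken on log2(CPM + 1). The cluster was itself computed from these genes and cells, so every difference between cluster 7 and the other CF cells is a description of the cluster and not a test.

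Centroacinar cells sit at the junction between the acini and the smallest ducts of the pancreas and share features with duct cells. Secretory epithelia of the pancreas, stomach and airway release a set of small protective proteins. These include WFDC2, a secreted whey acidic protein with antiprotease folds, the trefoil factors TFF1 and TFF2, which bind mucus and help a damaged surface to close, and BPIFB1, an airway secretory protein of the BPI fold family. MMP7 (matrilysin) is a metalloproteinase made by epithelial cells, DKK1 is a secreted inhibitor of canonical WNT signalling, and MUC17 is a membrane-bound mucin of the gut surface.

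The 8 libraries kept 1607 to 6224 cells, with library medians of 14949 to 23427 UMIs per cell, and 19941 in CF day 9. CFTR, the disrupted gene, stood at 2.50, 8.69, 11.1 and 11.4 CPM in the CF libraries of days 2, 5, 7 and 9 and at 6.57, 16.9, 15.9 and 29.5 CPM in the WT libraries, and UMIs counted at the 3′ end do not check a knockout made elsewhere in the gene. Cells of cluster 7 were deeper than the rest of their library, with a median of 30121 UMIs (4171 to 59656) against 18630.5, and had more mitochondrial UMIs, 8.32% against 5.07%. CF day 9 clusters 18 and 19, whose profiles were most like it, had 8.25% and 12.8%, with medians of 21715 and 22830 UMIs. In cluster 7, 61 cells (12.9%) lay above 2 times the library median, against 35 (1.74%) of the other cells. Of its 473 barcodes 6 (1.27%) also occurred in another library, against 13 of 2016 (0.645%) for the other cells. The authors removed doublets before deposit, and without the cells above 2 times the library median 30 genes were at least 4-fold higher, 27 of them among the 30 found with all cells.

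All 7 marker genes given with the label of the cluster were higher in its summed UMIs than in the other CF day 9 cells. Of these markers, 6 were at least 4-fold and all 7 at least 2-fold higher. These genes name the cluster, so their direction was set beforehand and describes the cluster without testing it. Of the 8050 genes with at least 10 CPM in either group, 0.373% were at least 4-fold higher and 3.22% at least 2-fold higher. The median log2 difference of the 7 markers was 2.45, where that of all genes compared was -0.32. Measured only against the other cells of the centroacinar class, the marker median was 5.65. That comparison leaves out clusters 18, 19 and 21, which are of other classes and also carried these genes, and without clusters 18 and 19 alone the median was 4.57.

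**Figure D1:**
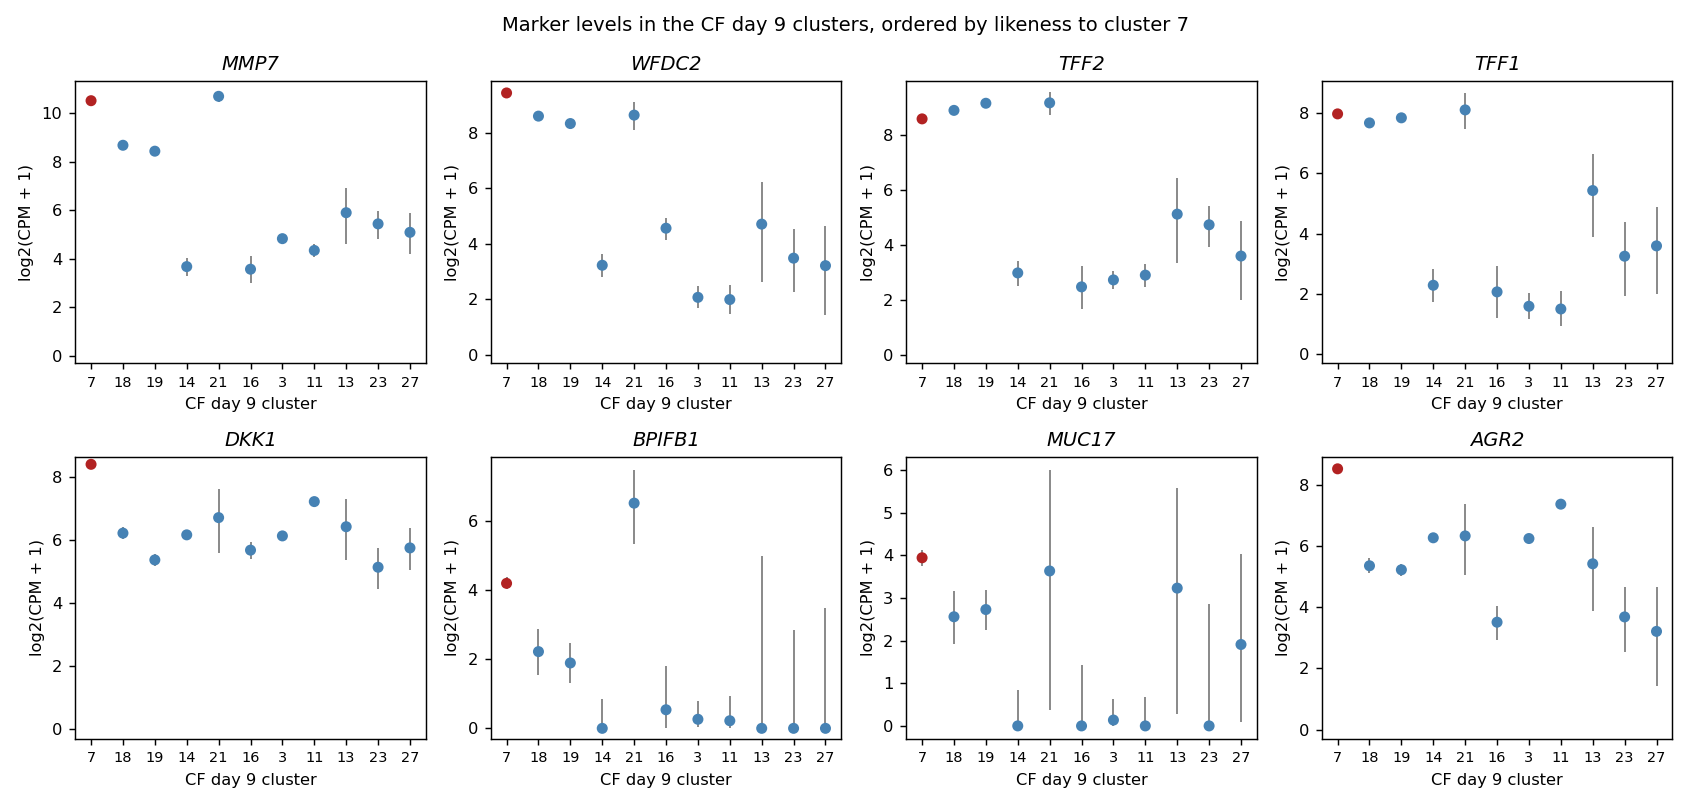
Summed levels, as log2(CPM + 1), of the 7 label markers and AGR2 in cluster 7 (red) and in the 10 other CF day 9 clusters with at least 50 cells (blue), ordered by the likeness of their profiles to cluster 7, with 95% exact Poisson intervals on the UMIs as bars. Clusters 18 and 19 lie near cluster 7 for TFF1 and TFF2 and below it for MMP7, DKK1, BPIFB1 and AGR2, and cluster 21, of 66 shallow cells, lies near or above it for MMP7, TFF1, TFF2 and BPIFB1.

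Among the secreted label proteins, WFDC2 (protein-coding, bases 9270027 to 9275552 of an assembly sequence whose chromosome the RefSeq table for ASM1176430v1.1 does not name) reached 697 CPM (683 to 711) in cluster 7 and 103 CPM (99.3 to 106) in the other cells, a ratio of 6.79 (6.54 to 7.06). TFF1 stood at 250 against 54.7 CPM (ratio 4.58, 4.33 to 4.84) and TFF2 at 381 against 133 CPM (2.87, 2.76 to 2.98). Cluster 7 thus held 72.9%, 64.4% and 53.1% of the library's UMIs of these 3 genes, beside 28.3% of all its UMIs. BPIFB1 was scarce, at 17.4 CPM (15.3 to 19.8) against 1.17 CPM (0.844 to 1.58), and 85.5% of its UMIs in the library lay in cluster 7. Its log2 difference of 3.09 became 0.76 when the other clusters were given equal weight, and cluster 21, of few UMIs, then counted as much as any other.

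MMP7 had the highest level of the label markers, at 1472 CPM (1452 to 1492) against 134 CPM (130 to 138), a ratio of 11 (10.7 to 11.4), and cluster 7 held 81.3% of its UMIs in the library. DKK1 stood at 333 CPM (324 to 343) against 75.2 CPM, and MUC17 at 14.4 against 1.81 CPM. MMP7 and DKK1 were thus abundant messages of the cluster, whereas MUC17 and BPIFB1 rested on few UMIs per cell.

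The trefoil genes and WFDC2 were not particular to cluster 7. Over the 8050 genes, the CF day 9 profiles most like it were cluster 18 (139 cells, class centroacinar_progenitor, Pearson r = 0.962 across genes, which are not independent replicates), cluster 19 (233 cells, class ductal, r = 0.960) and cluster 14 (208 cells, class centroacinar, r = 0.794). WFDC2 stood at 390 CPM in cluster 18 and 324 CPM in cluster 19, but at 8.37 CPM in cluster 14, 3.20 CPM in cluster 3 and 2.97 CPM in cluster 11. Over the 7552 genes compared with cluster 18, 127 (1.68%) were at least 2-fold higher in cluster 7 and 298 (3.95%) lower, and over the 7287 compared with cluster 19, 161 (2.21%) were higher and 165 (2.26%) lower. TFF1 gave 203 and 228 CPM in clusters 18 and 19, and cluster 7 exceeded them by ratios of 1.23 (1.13 to 1.34) and 1.1 (1.03 to 1.17). TFF2 was lower in cluster 7 than in either, with 472 and 565 CPM in clusters 18 and 19.

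MMP7, DKK1 and BPIFB1 differed more between cluster 7 and these neighbours than WFDC2 and TFF1 did. The ratios of cluster 7 over clusters 18 and 19 were 3.58 (3.39 to 3.79) and 4.25 (4.05 to 4.46) for MMP7, and 4.57 (4.02 to 5.23) and 8.33 (7.24 to 9.62) for DKK1. BPIFB1, at 3.68 and 2.72 CPM in clusters 18 and 19, gave ratios of 4.74 (2.67 to 9.31) and 6.41 (3.75 to 11.9). The same ratios were 1.79 (1.69 to 1.90) and 2.15 (2.04 to 2.27) for WFDC2. DKK1 was also present in clusters with little WFDC2, at 147 CPM in cluster 11 and 68.5 CPM in cluster 3. A small cluster of shallow cells, cluster 21 (66 cells, median 957.5 UMIs, class centroacinar_progenitor), had 400 CPM of WFDC2 (279 to 556, from 35 UMIs) 1669 CPM of MMP7 (1409 to 1962) and 91.4 CPM of BPIFB1 (39.5 to 180, from 8 UMIs). The BPIFB1 level of that cluster was above that of cluster 7, and the interval of its MMP7 level included that of cluster 7.

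Within cluster 7 the label genes differed widely in how many cells held them. After each cell was thinned to 3000 UMIs, MMP7 was found in 92.2% of the 473 cells (89.4 to 94.4), DKK1 in 47.1% (42.6 to 51.8) and TFF2 in 29.8% (25.7 to 34.2). TFF1 was found in 21.1% (17.5 to 25.1) and WFDC2 in 17.3% (14.0 to 21.1), and without thinning in 42.9% and 33.0%. In cluster 3 (median 18486 UMIs per cell), where WFDC2 and TFF1 stood at 3.20 and 2.00 CPM, the thinned shares were 1.54% for WFDC2, 0.385% for TFF1, 2.69% for TFF2 and 4.62% for MMP7. Cluster 19 exceeded cluster 7 in the thinned shares of WFDC2 (24.5%), TFF1 (34.3%) and TFF2 (43.8%), but not of MMP7 (49.8%) or DKK1 (7.30%). In cluster 18 the shares were 15.1% for WFDC2 and for TFF1, 27.3% for TFF2, 46.0% for MMP7 and 11.5% for DKK1. At this depth MMP7 was detected in nearly every cell of cluster 7 and WFDC2 and TFF1, which give it its name, in a minority, and a cell without a UMI may still express the gene.

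The UMIs of WFDC2 came from few cells. Of the 473 cells 317 had none, and the 10% of cells with the most WFDC2 (47 cells) held 94.9% of its UMIs, with up to 911 UMIs in 1 cell. The same share was 81.7% for TFF1, 77.7% for TFF2, 50.6% for AGR2, 37.7% for DKK1 and 27.7% for MMP7. For MMP7 the cells spanned 1.40 to 141 UMIs per 10000, with a median of 11.6. WFDC2 was as concentrated in cluster 18, where the top 10% of cells held 91.8%, and less so in cluster 19 (81.3%). With 10 or more UMIs, a limit chosen after the values were seen, WFDC2 was found in 67 cells, TFF1 in 70, TFF2 in 92, AGR2 in 147, DKK1 in 163 and MMP7 in 439.

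**Figure D2:**
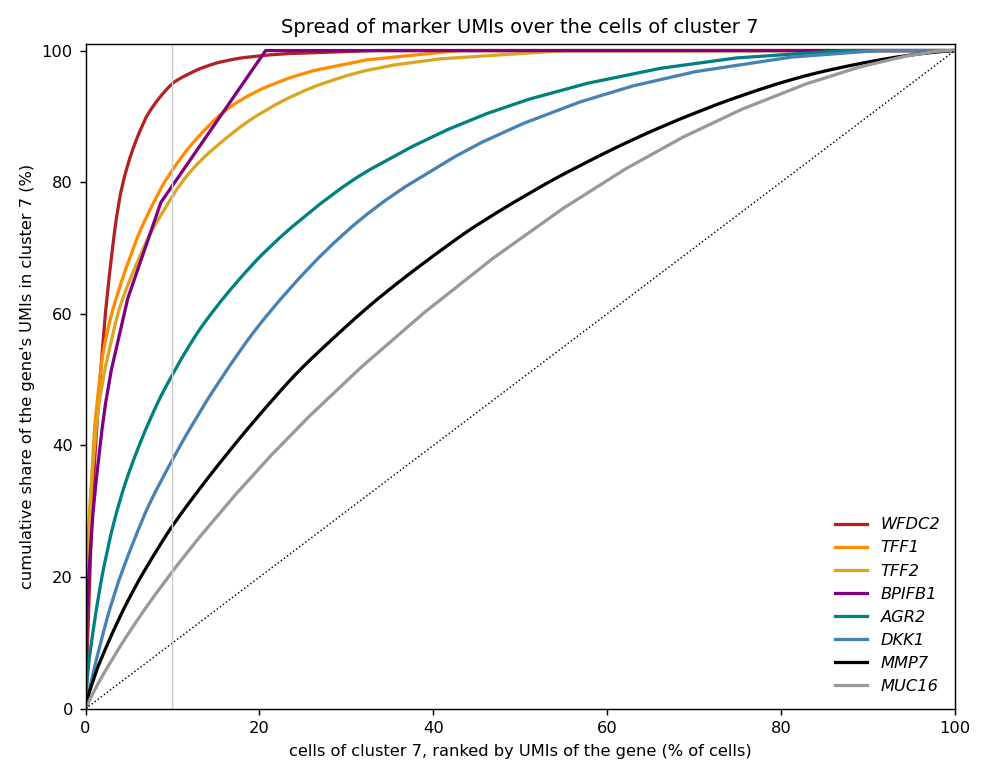
Cumulative share (%) of the UMIs of 8 genes over the 473 CF day 9 cells of cluster 7, ranked for each gene from the cell with the most UMIs (horizontal axis, % of cells), with a dotted line for an even spread and a grey line at 10% of cells. The curve of WFDC2 is the highest at 10% of cells, with 94.9% of the UMIs in the top 10% of cells, against 27.7% for MMP7.

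WFDC2 and TFF1 varied from cell to cell with little relation to each other. TFF1 was found in 65 of the 156 cells with a WFDC2 UMI (41.7%) and in 43.5% of the cells without one, and Spearman's rho between the genes over the 473 cells of this 1 library was 0.02. Of the 67 cells with 10 or more UMIs of WFDC2 and the 70 with as many of TFF1, 13 were the same cells. TFF1 and TFF2 went together instead: 162 of the 203 cells with TFF1 also held TFF2 (79.8%), against 36.7% of the cells without TFF1, with rho 0.57, or 0.40 after thinning to a common depth. TFF3 followed the same cells (rho 0.42 with TFF2, 0.33 after thinning), and the gel-forming mucin MUC5AC did so less (0.30 with TFF1 and 0.21 with TFF2, 0.23 and 0.13 after thinning). Of the 7 label markers, 124 cells held 3, 160 cells held 4 and 4 cells held all 7.

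Among all genes, 30 were at least 4-fold higher in cluster 7 and 366 were at least 4-fold lower, which is 0.373% and 4.55% of the 8050 compared. At 2-fold the numbers were 259 and 1285 (3.22% and 16.0%). A gene that reached 10 CPM in only 1 of the groups passed through the group where it was high, and of the 6662 genes that reached it in both, 196 were at least 2-fold higher and 655 lower. The list counts that follow hold genes of both kinds and are descriptions. List medians against clusters 18 and 19 stand beside -0.16 and 0.00, the medians of all 8050 genes against these clusters. Among genes higher in cluster 7 and with at least 50 CPM there, the 2 largest differences were those of LOC101676065, an unnamed protein-coding gene, at 237 against 15.1 CPM, and MMP7.

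**Figure D3:**
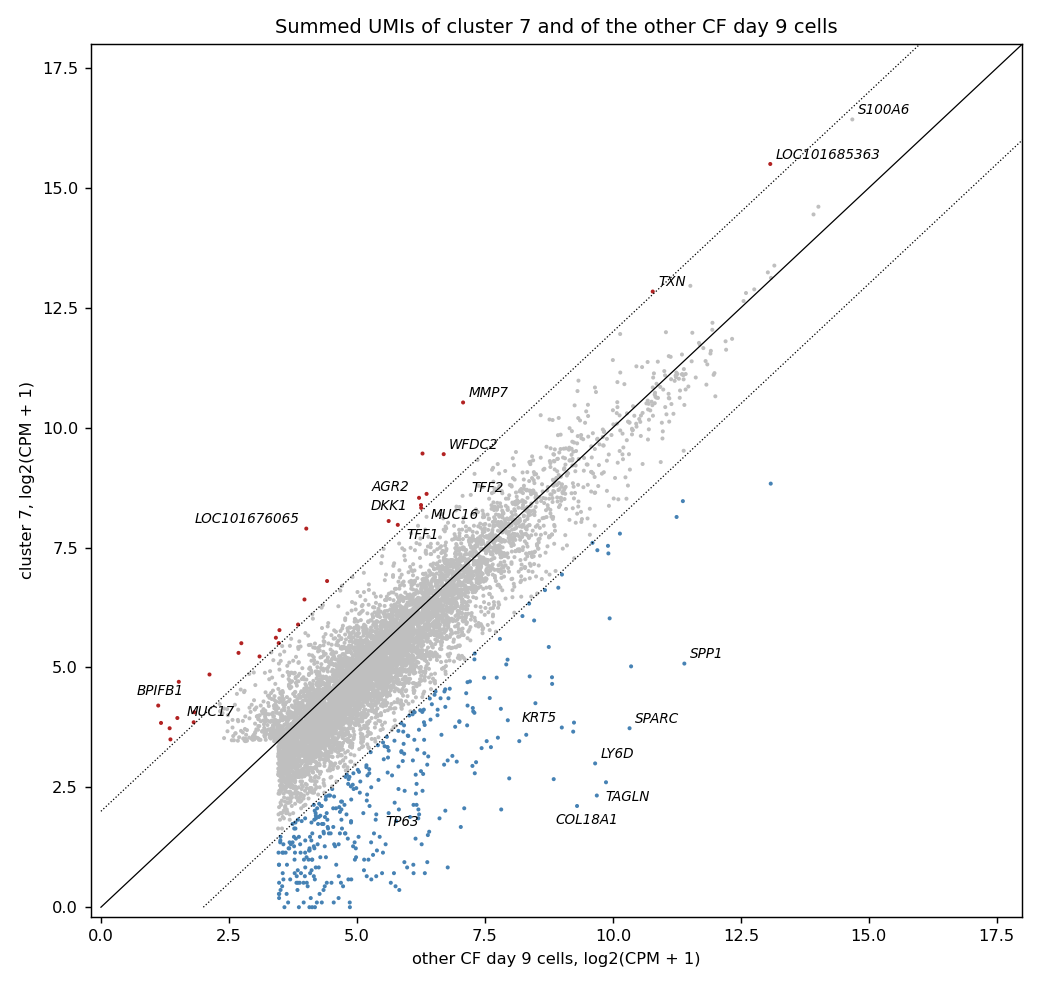
Level of each of the 8050 compared genes in cluster 7 (vertical axis) against the other CF day 9 cells (horizontal axis), both as log2(CPM + 1), with genes at least 4-fold higher in red and at least 4-fold lower in blue, a solid line of equality and dotted lines at a 4-fold difference. MMP7, WFDC2 and LOC101676065 lie above the upper dotted line among 30 red genes, and TAGLN, SPARC, SPP1 and LY6D below the lower one among 366 blue genes.

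Of the 7 mucins compared, 5 were at least 2-fold higher and none lower, with a median log2 difference of 1.67. The list has 12 genes in the files, 4 of the 7 reached 10 CPM in both groups and 3 of those were higher, and MUC17, 1 of the 5, is a label marker. MUC5AC, the gel-forming mucin of airway and stomach surface cells, stood at 111 against 20.4 CPM, and MUC16, a large membrane mucin, at 320 against 75.4 CPM. MUC5B was at 15.5 against 4.18 CPM and MUC13, a membrane mucin of the gut, at 26.1 against 11.7 CPM. MUC16 was seen in 60.0% of the thinned cells of cluster 7 and MUC5AC in 16.5%. Against clusters 18 and 19 the mucins had median log2 differences of 0.57 and -0.26, with MUC5AC higher in cluster 7 than in both (ratios 2.28 and 1.55). The list as a whole summed to 1476 and 1486 CPM in clusters 18 and 19, above the 1122 CPM of cluster 7.

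Secreted antimicrobial and antiprotease genes gave 7 of 10 at least 2-fold higher and 1 lower, with a median of 1.84, out of 31 in the files. Of the 7, WFDC2 and BPIFB1 are label markers, and of the 5 genes that reached 10 CPM in both groups 3 were higher. PI3 (elafin, a protease inhibitor of mucosal surfaces) stood at 25 against 1.87 CPM, S100A9, a subunit of calprotectin, at 38.8 against 9.04 CPM, and DUOX2, the oxidase that makes hydrogen peroxide at epithelial surfaces, at 28.6 against 8.20 CPM, beside its maturation factor DUOXA2 at 53.9 against 10.2 CPM. The 1 lower gene, SPINK1, an inhibitor of trypsin, stood at 135 against 311 CPM, a level set by clusters 18 and 19. Without those 2 clusters SPINK1 was higher in cluster 7, by 1.1 on the log2 scale, so its direction depended on them. Its level in cluster 7 rested on few cells, as 16 cells with 10 or more UMIs held 85.4% of its UMIs there. Clusters 18 and 19 carried more of this list than cluster 7, with summed levels of 1958 and 1873 CPM against 1261 CPM.

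The machinery that folds and ships mucus was higher in part. AGR2, a disulfide isomerase of mucus-making cells, stood at 370 against 73.2 CPM (ratio 5.06, 4.83 to 5.30) and was found in 42.9% of the thinned cells. Clusters 11, 14 and 3 held 165, 76.6 and 75.3 CPM of AGR2 but only 0.826, 1.07 and 0.699 CPM of MUC5AC. Clusters 18 and 19 held 40.1 and 36.5 CPM of AGR2 beside 48.4 and 71.5 CPM of MUC5AC. Over the cells of cluster 7, rho of AGR2 was -0.04 with MUC5AC and -0.02 with TFF1. CREB3L1, a transcription factor that expands the secretory route, was at 28.1 against 6.44 CPM, and ST6GALNAC1, which sialylates mucins, at 76.5 against 23.9 CPM. In all, 4 of 9 compared genes of this list were at least 2-fold higher and none lower, and the medians against clusters 18 and 19 were -0.07 and 0.00. XBP1, a regulator of secretory cells, stood at 44.0 against 86.9 CPM. Of the genes of gastric pit and neck cells, 3 of 7 compared were at least 2-fold higher, of which TFF1 and TFF2 are label markers and ANXA10 stood at 168 against 80.1 CPM. The nearest clusters carried more of this list, with summed levels of 2056 and 1848 CPM in clusters 18 and 19 against 1142 CPM in cluster 7, and medians of -0.97 and -0.87.

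S100A6, a calcium-binding protein that the study lists among its centroacinar markers, took 88092 CPM against 26192, and with LOC101685363 it made up 13.4% of all UMIs of the cluster against 3.48% in the other cells. Clusters 18 and 19 were closer, with 55818 and 70641 CPM of S100A6 (ratios of cluster 7 over them 1.58 and 1.25). TXN (thioredoxin), a redox protein, stood at 7321 against 1755 CPM, and at 3350 and 3521 CPM in clusters 18 and 19. AREG (amphiregulin), a ligand of the EGF receptor, was at 641 against 163 CPM, SULT2B1, a sterol sulfotransferase, at 264 against 48.2 CPM, and DDX60, an interferon-induced helicase, at 392 against 81.2 CPM. Clusters 18 and 19 were closer here too, with 375 and 348 CPM of AREG, 160 and 85.5 of SULT2B1, and 237 and 221 of DDX60. Of 13 interferon-stimulated genes 3 were at least 2-fold higher and 2 lower, with a median of 0.16, so DDX60 did not stand for the list. With TMM factors, which set less weight on such abundant genes, the median of all genes was 0.07 in place of -0.32.

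**Figure D4:**
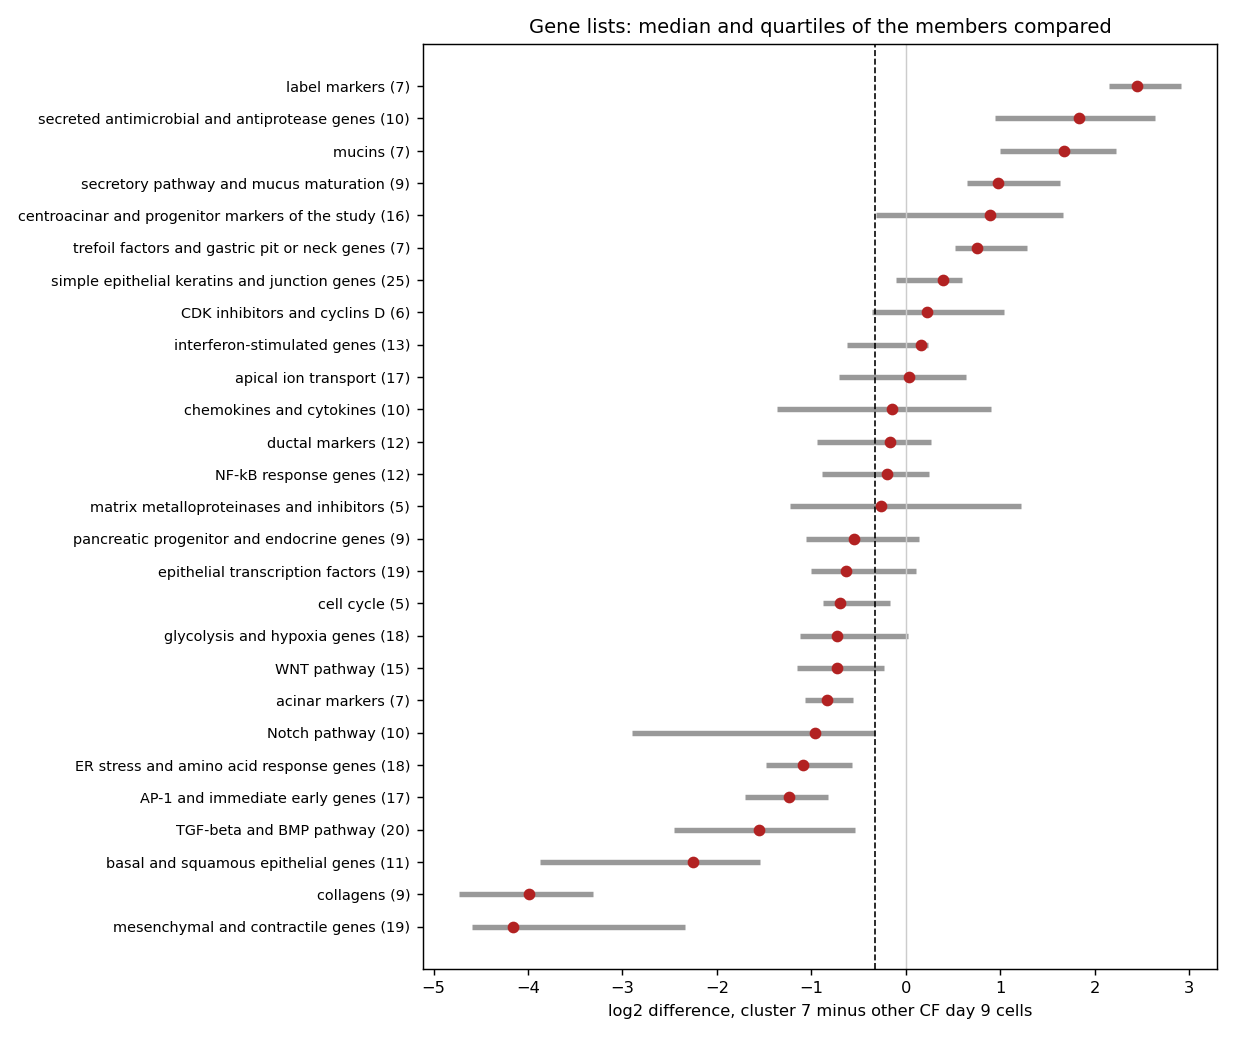
Median (red points) and quartiles (grey bars) of the log2 difference, cluster 7 minus the other CF day 9 cells, over the compared members of each list with at least 5 of them, the number in brackets, with a dashed line at the median of all genes (-0.32). The mesenchymal, collagen and basal medians of -4.16, -3.99 and -2.25 lie farthest to the left, and those of the label markers, antimicrobial genes and mucins (2.45, 1.84 and 1.67) farthest to the right.

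Genes of contractile and matrix-making cells were among those lowest in cluster 7 relative to the other CF day 9 cells. TAGLN, an actin-binding protein of smooth muscle, stood at 4.02 CPM (3.05 to 5.21) against 823 CPM (813 to 832), COL18A1, a basement membrane collagen, at 3.32 against 629 CPM, and SPARC, a matricellular protein, at 12.3 against 1282 CPM. SPP1 (osteopontin), which marks duct and matrix-rich cells, was at 32.8 against 2693 CPM. Of the 19 mesenchymal and contractile genes compared, 18 were at least 2-fold lower and none higher (median -4.16), and all 9 collagens compared, of 20 in the files, were at least 2-fold lower (median -3.99). Of these, 11 mesenchymal genes and 2 collagens reached 10 CPM in both groups, and 10 and 2 of them were lower. Against clusters 18 and 19 these lists had medians of 0.75 and 0.25 for the mesenchymal genes and 0.28 and -0.39 for the collagens. The low levels were thus shared with these clusters. The mesenchymal list summed to 750 and 1105 CPM in clusters 18 and 19, below the 1279 CPM of cluster 7. The collagens summed to 76.3 and 145 CPM there, against 95.9 CPM in cluster 7.

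Basal and squamous genes gave 10 of 11 at least 2-fold lower and none higher, with a median of -2.25, and 8 of the 9 that reached 10 CPM in both groups were lower. Clusters 18 and 19 shared the low level of this list, with medians of 0.26 and -0.10 for cluster 7 against them. KRT5, a basal keratin, stood at 12.4 against 512 CPM and TP63, the transcription factor of basal cells, at 1.98 against 84.1 CPM. The simple epithelial keratin KRT8 went the other way, at 1829 against 802 CPM, and so did SOX9, a transcription factor of duct and centroacinar cells, at 23.8 against 7.09 CPM. KRT8 stood at 1270, 861 and 2309 CPM in clusters 18, 19 and 21, and SOX9 at 16.2, 12.1 and 37.4 CPM in clusters 18, 19 and 23. KRT8 did not stand for its list. Of 25 simple epithelial keratin and junction genes compared, 2 were at least 2-fold higher and 2 lower. Their median was 0.39, and -0.18 and 0.01 against clusters 18 and 19. Ductal markers as a list were mixed, with 2 of 12 at least 2-fold higher and 3 lower. Of the study's centroacinar and progenitor markers, 6 of 16 compared were at least 2-fold higher and none lower (median 0.89), but the list had medians of -0.43 and -0.32 against clusters 18 and 19. The study used these genes to name the classes of these cells, so the direction of the list is not independent evidence of the class.

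Markers of other cell types were at 0 in part in cluster 7. A list member with no UMI in the whole CF day 9 library is also at 0 there. In that library, UMIs were found for 10 of 15 acinar and 9 of 11 fibroblast and stellate members. The same held for 3 of 9 endothelial and 5 of 11 immune members. Of the 15 acinar list members in the files, 8 had no UMI in cluster 7, among them the digestive enzymes CPB1 and CEL and the acinar factors PTF1A and BHLHA15, and the whole list summed to 292 CPM against 561 CPM. The fibroblast and stellate list had 9 of 11 genes at 0, DCN and PDGFRB among them, with a summed level of 3.04 CPM against 27.0 CPM in the other cells. The endothelial list had 7 of 9 at 0, with 2.12 against 1.03 CPM, and the immune list 7 of 11, PTPRC among them, with 40.3 against 17.8 CPM. The 2 immune list members compared were both at least 2-fold higher in cluster 7, CD68 at 10.5 against 4.30 CPM and CD74 at 28.6 against 12.8 CPM, though CD68 reached 10 CPM in cluster 7 alone. The immune list summed to 46.9 and 50.7 CPM in clusters 18 and 19. The part of immune cells or their RNA in the results was not tested.

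Several signalling lists lay below the other CF cells, and nearer to clusters 18 and 19. In the TGF-beta and BMP list 14 of 20 genes were at least 2-fold lower and none higher (median -1.55, and -0.44 and -0.60 against clusters 18 and 19), including TGFB1 at 13.7 against 127 CPM, SMAD7, an inhibitor of the pathway, at 16.0 against 154 CPM, and ID3, a BMP target, at 220 against 1125 CPM. Notch ligands and targets had 5 of 10 lower (median -0.96, and -0.003 and -0.52 against clusters 18 and 19), with JAG1 at 47.3 against 221 CPM and HES1, the Notch-responsive repressor, at 294 against 630 CPM. In the WNT list 7 of 15 were lower and 2 higher, DKK1 among them, with a median of -0.73, and of 0.02 and -0.40 against clusters 18 and 19. SFRP1, a secreted inhibitor, stood at 27.1 against 331 CPM, and WNT5A, a non-canonical ligand, at 96.2 against 24.6 CPM. DKK1 and SFRP1, both inhibitors of WNT signalling, thus differed in opposite directions. Of the genes that reached 10 CPM in both groups, 11 of 17 in the TGF-beta and BMP list were at least 2-fold lower. For Notch this held for 2 of 7, and for WNT 5 of 13 were lower and 2 higher.

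AP-1 and immediate early genes had negative medians both against the library and against the nearest clusters. Of the 17 genes compared, of 22 in the list, 10 were at least 2-fold lower than in the other CF cells and none higher (median -1.23), and the medians against clusters 18 and 19 were -1.23 and -0.74. Of the 15 that reached 10 CPM in both groups, 9 were lower. JUNB stood at 100 against 488 CPM, JUN at 127 against 414 CPM and FOSB at 19.5 CPM, against 131 and 161 CPM in clusters 18 and 19. ER stress and amino acid response genes had 11 of 18 lower (HSPA5, the main ER chaperone, at 177 against 518 CPM) but medians of -0.24 and 0.14 against clusters 18 and 19. Of the 16 members of this list that reached 10 CPM in both groups, 10 were lower.

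Ion transport genes showed no common shift, with 1 of 17 at least 2-fold higher, 4 lower and a median of 0.04. All 4 lower genes reached 10 CPM only in the other cells. Of the 13 genes that reached it in both groups 1 was higher and none lower. SLC12A2, the basolateral cotransporter that loads cells with chloride, stood at 275 against 102 CPM, and KCNN4, a calcium-activated potassium channel, at 4.17 against 70.1 CPM. CFTR was at 14.0 CPM (12.1 to 16.1) against 10.4 CPM (9.35 to 11.5), with 23.0 CPM in cluster 18. PDX1, a pancreatic transcription factor, gave 1.91 CPM (27 UMIs) against 5.44 CPM, PAX6 40.5 against 50.3 CPM, and SOX2 no UMI in the 473 cells, where 3 counts would be 0.212 CPM. The whole CF day 9 library held 1 SOX2 UMI, so the lack of SOX2 was not particular to cluster 7.

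Of 32 cell cycle genes in the files 5 passed the level needed for the comparison, and 1 of these was at least 2-fold lower and none higher. The 1 lower gene reached 10 CPM only in the other cells, and of the 4 that reached it in both groups none was lower. In a separate list of CDK inhibitors and D cyclins, 2 of 6 genes compared were at least 2-fold higher and 1 lower (median 0.22). The G1 cyclins CCND2 (1177 against 491 CPM) and CCND3 (221 against 65.6 CPM) were higher. MYC was lower (6.07 against 31.9 CPM) and reached 10 CPM only in the other cells.

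A further count, with a rule set after the values were seen, asked which genes differed at least 2-fold from both nearest clusters. Of 7680 genes compared there, 49 (0.638%) were higher in cluster 7 than in both and 100 (1.30%) were lower than in both. Of those with at least 50 CPM, AGR2 had the largest of the lesser ratios, at 370 CPM against 40.1 in cluster 18 and 36.5 in cluster 19, ratios of 9.23 (7.76 to 11.1) and 10.1 (8.76 to 11.8). DKK1, LOC101676065, MMP7 and EREG (epiregulin, 176 CPM against 53.0 and 77.8) were in this group. CAV1, HSPB1 and F3 (tissue factor, 330 CPM against 113 and 128) were as well, yet the other CF cells carried more of them still, for F3 969 CPM. Among the genes lower than in both were LY6D (6.99 CPM against 278 and 160), SPINK1 (135 against 1089 and 1143), TFF3 (46.9 against 317 and 392) and SELENOP, a selenium transport protein (17.1 against 214 and 144). TFF3, the trefoil of goblet cells, therefore parted from TFF1 in these clusters.

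The 19 cells of cluster 7 from CF day 7, a library and day other than that of the main comparison, gave 788 CPM of MMP7 (718 to 862), 394 CPM of TFF2 (345 to 447), 145 CPM of TFF1 (116 to 178) and 69.8 CPM of WFDC2 (50.3 to 94.3). DKK1 stood at 73.1 CPM (53.1 to 98.2). The TFF2 level was near the 381 CPM of day 9, and those of MMP7, TFF1, WFDC2 and DKK1 were below their day 9 levels, with no replicate behind the comparison. In these 19 cells WFDC2 was below, and DKK1 near, the 95.3 and 70.4 CPM of the whole CF day 7 library. MMP7, TFF1 and TFF2 were above their levels in that library, of 167, 52.3 and 130 CPM. In the whole CF libraries of days 2, 5, 7 and 9, WFDC2 stood at 0.469, 34.8, 95.3 and 271 CPM, TFF1 at 0.166, 6.76, 52.3 and 110 CPM, and DKK1 at 28.5, 44.8, 70.4 and 148 CPM. MMP7 followed no such order, at 181, 274, 167 and 513 CPM, nor did BPIFB1, at 1.57, 0.993, 2.25 and 5.78 CPM.

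On the deposited CF pseudotime of the lineage that scored cluster 7, all 473 cells had a score, with a median of 57.5 (quartiles 54.8 and 60.9). Clusters 19 and 18 had medians of 49.1 and 44.3 on the same scale, and no cell of clusters 3, 11, 14 or 16 was scored. Of the 264 CF cells at or above the median of cluster 7, 247 were of cluster 7. The scores come from the same expression space as the clusters and add no independent evidence.

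WT cells were clustered apart from the CF cells, and none was assigned to cluster 7. Among the 18 WT day 9 clusters with at least 50 cells, the closest profiles were WT cluster 17 (406 cells, class ductal, r = 0.942) and WT cluster 30 (146 cells, class centroacinar, r = 0.938). MMP7 was at 2095 and 1138 CPM there, on either side of the 1472 CPM of cluster 7, and WFDC2 at 511 and 301 CPM, against 697. WFDC2 reached 28765 CPM in WT cluster 7 and 11815 CPM over the whole WT day 9 library, against 271 CPM over the CF day 9 library, and WT clusters 2, 8 and 23 held 206 to 228 CPM. The part of free RNA in the WFDC2 of WT clusters 17 and 30 was not tested, so these levels are given side by side with no order read from them.

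**Figure D5:**
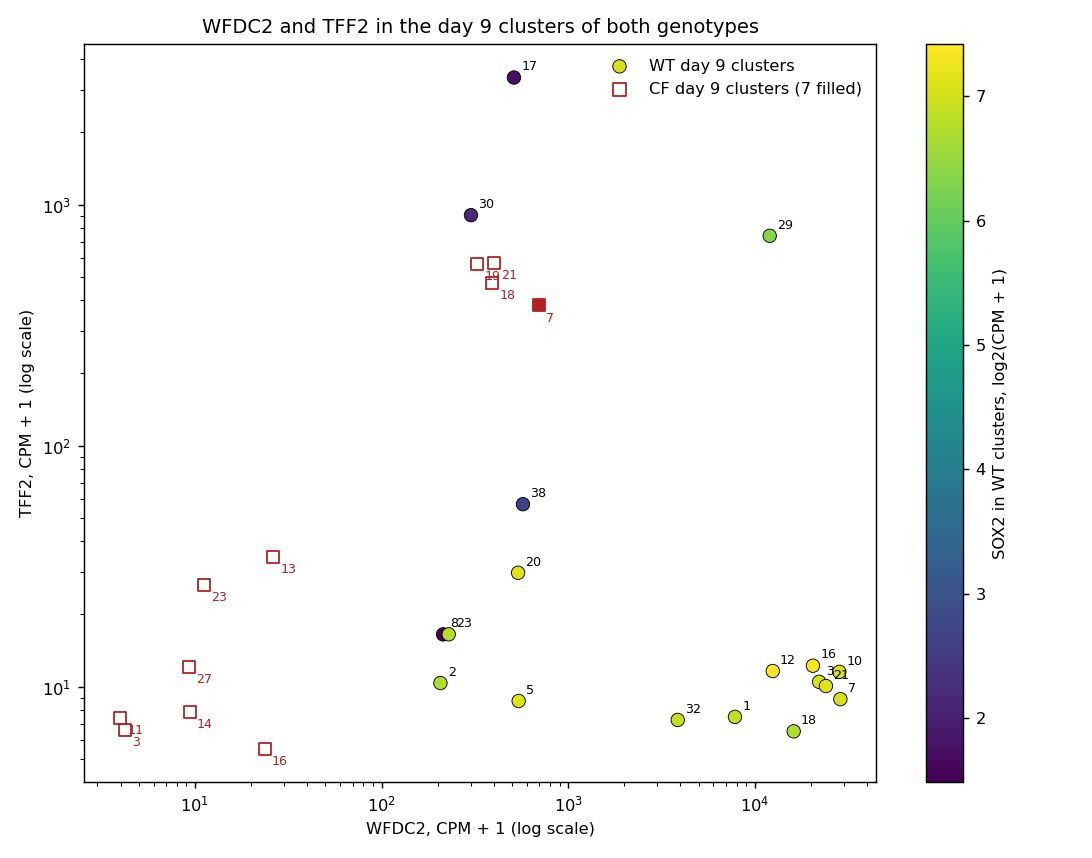
WFDC2 (horizontal axis) and TFF2 (vertical axis), both as CPM + 1 on log scales, in the day 9 clusters of at least 50 cells, as circles for 18 WT clusters coloured by their SOX2 level and red squares for the CF clusters (cluster 7 filled). CF clusters 7, 18, 19 and 21 and WT clusters 17 and 30 have WFDC2 levels of 301 to 697 CPM. These CF clusters have 381 to 571 CPM of TFF2, below the 3364 and 903 CPM of WT clusters 17 and 30. WT clusters 5, 20 and 38 lie in the same WFDC2 range, at TFF2 levels of 7.72 to 56.1 CPM. The other CF clusters lie at the lower left.

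The trefoil factors and BPIFB1 were lower in CF cluster 7 than in both WT clusters, by less against WT cluster 30. TFF1 stood at 250 CPM against 1398 in WT cluster 17, TFF2 at 381 against 3364, TFF3 at 46.9 against 1449 and BPIFB1 at 17.4 against 394. WT cluster 30 had 321 CPM of TFF1, 903 of TFF2, 341 of TFF3 and 81.1 of BPIFB1. DKK1 differed in the other direction, at 333 against 49.1 CPM (ratio 6.79, 6.06 to 7.64), as did AGR2 (370 against 192 CPM) and TXN (7321 against 2308 CPM). CFTR was at 14.0 against 58.6 CPM (ratio 0.238, 0.200 to 0.284) and HES1 at 294 against 852 CPM. Over the 7738 genes compared with WT cluster 17, 138 (1.78%) were at least 2-fold higher in CF cluster 7 and 499 (6.45%) at least 2-fold lower. Genotype, donors, library and the choice of cluster all differ in this contrast and cannot be told apart.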

How the data were processed

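Per the labels, single-cell RNA was sequenced from WT and CF ferret pancreatic ductal epithelial cultures at 4 days. The authors counted UMIs with Cell Ranger 5.0.1 on the ASM1176430v1.1 build with an improved annotation, and, in R 4.1.2 with Seurat, dropped cells that had fewer than 200 genes or over 20% mitochondrial UMIs, and removed doublets. The deposited counts are raw UMIs per gene and cell, the deposited metadata give each cell's cluster, class and mitochondrial percent, and the deposited pseudotime is a score of the authors' slingshot lineages. A deposited normalized table was not used.

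UMIs were summed per cluster and library and expressed as CPM. Genes with at least 10 CPM in either group were compared on log2(CPM + 1), and calls are folds of 4 or 2. Shares of cells were taken after thinning every cell to 3000 UMIs (seed 1), leaving out 224 other CF day 9 cells and none of cluster 7. With 1 library per genotype and day there was no test. Named genes were the 7 label markers, the 20 largest and 12 smallest differences among genes with at least 50 CPM, up to 6 members per list, and CFTR, PDX1, SOX9, PAX6, HES1 and SOX2. The cluster, the 31 gene lists and these rules were chosen with earlier results of these data known. Another 3 lists, the comparison with both clusters 18 and 19 and the limit of 10 UMIs were chosen after the values were seen. No sequences were printed.

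Python 3.11.15, numpy 2.4.6, pandas 2.3.3, scipy 1.17.1 and matplotlib 3.10.9 were used, and edgeR 4.0.16 in R 4.3.3 gave the TMM factors of an alternative. The steps were tested on simulated data. Genes with near-identical copies may share UMIs.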

Additional observations from a re-analysis of the deposited data

How the results depend on the processing

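No paired analysis was possible because the comparison is between cells of 1 library and cluster 7 holds no WT cell, and for the same reason no replicate could be left out. The 30 genes at least 4-fold higher became 256 against other centroacinar-class cells only, 179 with clusters 18 and 19 left out (an alternative chosen after seeing the data), 82 with cells of at least 3000 UMIs and at most 10% mitochondrial UMIs, 76 with TMM factors, 17 with a pseudocount of 5 CPM, 16 with a minimum of 50 CPM and 259 at a fold of 2. The 366 genes at least 4-fold lower became 197 with a pseudocount of 5 CPM, 148 with a minimum of 50 CPM and 1285 at a fold of 2, and other settings gave 274 (TMM factors) to 544 (centroacinar-class cells only). All 30 higher genes were among those called with TMM factors, with the depth and mitochondrial limits and without clusters 18 and 19. In the comparison with centroacinar-class cells only, 29 of them were called. The TMM factors (0.876 for cluster 7, 1.14 for the other cells) raise each level in cluster 7 and lower each in the others. No higher gene could therefore drop out with them. The mitochondrial limit takes cells from cluster 19 (median 12.8%). The last 2 settings leave out clusters 18 and 19, the most like cluster 7. These shared genes are thus no independent support. With the other clusters at equal weight 25 genes were called, 17 of them among the 30, and with means of per-cell values 33, 26 of them among the 30. The share of 19% became 24.2% over centroacinar-class cells. The marker median of 2.45 became 5.65 against centroacinar-class cells only, 4.57 without clusters 18 and 19, 1.83 with the other clusters at equal weight and 2.08 with a pseudocount of 5 CPM. Reversed were SPINK1 (from -1.19 to 5.07 and 1.1) and CES1 (from -1.24 to 2.39 and 0.82), against centroacinar-class cells only and without clusters 18 and 19, since both settings leave out clusters that hold 1089 and 1143 CPM of SPINK1 and 381 and 121 CPM of CES1. BPIFB1 and MUC17 rest on few UMIs per cell, and for 1 pooled library no spread between donors is known.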

Other observations

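The 3 lists added after the values were seen are given as values. Over all 8050 genes compared, 3.22% were at least 2-fold higher in cluster 7 and 16.0% at least 2-fold lower. The medians of all these genes over clusters 18 and 19 were -0.16 and 0.00. EGF receptor ligands and receptors had 3 of 8 genes at least 2-fold higher in cluster 7 and none lower, with a median log2 difference of 0.61. Over clusters 18 and 19 the medians of this list were -0.15 and -0.08. AREG stood at 641 against 163 CPM, EREG at 176 against 44.9 CPM and BTC (betacellulin) at 39.3 against 17.9 CPM, whereas the receptor EGFR stood at 250 against 462 CPM.

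Thioredoxin, glutathione and metal chaperone genes had 4 of 18 at least 2-fold higher and 1 lower, with a median of 0.64. Their medians over clusters 18 and 19 were -0.23 and 0.11. Beside TXN, the copper chaperone ATOX1 stood at 3961 against 1129 CPM, the glutathione peroxidase GPX1 at 2719 against 1022 CPM and the glutathione transferase GSTP1 at 1142 against 452 CPM. GPX2, the gastrointestinal form, was the lower one, at 16.8 against 153 CPM.

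Caveolae genes, which build the small pits of the plasma membrane, had 1 of 6 at least 2-fold lower than in the other CF cells and a median of 0.10, with medians of 1.33 and 0.79 over clusters 18 and 19. CAV1 stood at 207 CPM in cluster 7, 36.8 and 55.6 CPM in clusters 18 and 19, and 327 CPM in the other CF cells.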
